A study of Mus musculus with 4 samples.

Results

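The ATP-binding cassette (ABC) genes of mouse small intestine were compared between wild-type mice and mice carrying a homozygous deletion of the Cyp3a cluster (Cyp3a-/-), a block of neighbouring genes for drug-oxidising cytochrome P450 enzymes. Members were all genes whose symbol is Abc, a letter from a to g and a number. The array carried 50 of them among 21153 named genes, and 38 passed the filter on dim probes and were tested among 14395 genes. Total RNA of small intestine was read on 1-colour Agilent arrays, with 2 arrays per genotype, called wild type 1 and 2 and knockout 1 and 2. The series' design text says that the experiments used different animals. The labels give neither strain, age, treatment, gut segment nor the number of animals behind an array.

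ABC proteins share an ATP-binding module, and most use ATP hydrolysis to move substrates across membranes. A few members act on ribosomes instead, and others regulate potassium channels. In the gut, efflux pumps in the apical membrane of enterocytes, among them P-glycoprotein, MRP2 and BCRP, return drugs and their conjugates to the lumen, and many of their substrates are also substrates of CYP3A enzymes. Other members return plant sterols and cholesterol to the lumen, load cholesterol onto lipoproteins, or serve mitochondria, peroxisomes and lysosomes. The comparison asks how expression of these genes differs when intestinal Cyp3a is missing.

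A level here is the log2 signal of a probe after subtracting its array's 75th percentile. A difference is knockout minus wild type on the log2 scale, and its standard error (SE) and 95% interval come from limma's fit over all tested genes. Values of different genes come from different probes and are not set against each other as amounts. An array had from 55.1% to 64.4% of its 39429 probes well above background, the 75th percentile of signal lay between 175 and 356, and no spot was saturated. The deletion was visible in the data. Cyp3a11 read 5.05 in wild type 1, 5.78 in wild type 2, -5.77 in knockout 1 and -4.52 in knockout 2, and neither knockout value was well above background. Limma called 6 of all tested genes, all lower in knockout and all Cyp3a cluster genes. Cyp3a13 also read lower, with 4.67 and 4.98 in wild type and -0.53 and -2.57 in knockout. It was not called (difference -6.37, limma's adjusted p = 0.105).

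Knockout 1 stood apart from the other arrays. Across all tested genes the knockout arrays correlated at 0.948 with each other, knockout 1 at 0.966 and 0.962 with wild type 1 and 2, and knockout 2 at 0.981 and 0.98. Cell type markers moved with this. All 9 markers of absorptive enterocytes, including Alpi, Sis and Vil1, were well above background on every array. Their summed level was 9.69 and 9.04 in wild type 1 and 2, 10 in knockout 1 and 9.25 in knockout 2. The summed level of 6 smooth muscle markers, all well above background on every array, was 7.05 and 7.21 in wild type, 6.22 in knockout 1 and 7.78 in knockout 2. By these sums knockout 1 was highest for enterocyte and lowest for muscle markers, and their part in the results below was not tested. Fabp2, the brightest enterocyte marker, was higher in wild type 1 (8.86) than in knockout 1 (8.77). Relative to the wild-type mean, the enterocyte medians were 0.30 and -0.30 in wild type 1 and 2, 0.93 in knockout 1 and -0.22 in knockout 2. Of 8 liver markers 6 were tested, and their summed level was 3.92 and 2.03 in wild type but 1.37 and 2.29 in knockout, and Fga was not well above background on any array. Of 5 adipocyte markers 3 were tested, summing to 1.52 and 1.44 in wild type but 0.74 and 2.29 in knockout, and neither Plin1 nor Lep was well above background anywhere. In tissue RNA, fewer cells of a type and less RNA per cell cannot be told apart. Knockout 1 shared its slide and scan with wild type 2, and the other arrays were each alone on a slide.

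Of the 38 tested ABC genes, 0 passed limma's threshold of an adjusted p of 0.05, where 0% of all tested genes passed as higher in knockout and 0.0417% as lower. The adjusted p was 1.00 for each member, and 0 members had an unadjusted p under 0.05, against 0.438% of all genes. Differences were positive in 25 members (65.8%), against 56.2% of all genes. They ran from -1.29 for Abca5 to 1.18 for Abcb1a, with a median of 0.08 beside 0.04 over all genes. Without knockout 1 the median was -0.03, without wild type 2 it was -0.01, without wild type 1 it was 0.22, and within the slide shared by wild type 2 and knockout 1 it was 0.34. The genotypes did not overlap for 5 members. Knockout was higher on both arrays for 2, Abcb1a and Abca1, and lower for 3, Abca2, Abcg1 and Abcg4. The same held for 8.66% and 6.09% of all genes, so these counts are near the background.

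Knockout 1 was above the wild-type mean for 22 members (57.9%, against 52.9% of all genes) and knockout 2 for 16 (42.1%, against 55.1%). Both knockout arrays were above it for 8 members (21.1%, against 23.1% of all genes) and both below it for 8 (21.1%, against 15.1%). Within the shared slide 21 members had a positive difference (55.3%, against 56.4% of all genes).

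The members were more spread out on knockout 1 than on knockout 2. Relative to the wild-type mean, they ran from -2.54 to 2.11 in knockout 1 and from -0.54 to 0.48 in knockout 2. The lowest value is that of Abca5, which was not well above background in knockout 1. Over the 36 members well above background on all 4 arrays, the range in knockout 1 was -1.20 to 2.11. In knockout 1, 6 members were over 2-fold above the wild-type mean (15.8%, against 3.72% of all genes) and 3 were over 2-fold below it (7.89%, against 6.38%). In knockout 2, 0 members were over 2-fold away in either direction, against 2.84% of all genes. The 2 wild-type arrays themselves were over 2-fold apart for 4 members (10.5%) and for 5.37% of all genes. The SD over members of the difference between 2 arrays was 0.578 for the wild-type pair, 0.383 and 0.398 for knockout 2 against wild type 1 and 2, and 0.876 and 1.09 for knockout 1 against the same arrays. Over the 36 members they were 0.567, 0.385, 0.384, 0.813 and 0.969. Over all genes these SDs were 0.566, 0.529, 0.55, 0.722 and 0.772. In both gene sets knockout 2 lay closer to wild type than the wild-type arrays lay to each other, by more for the ABC genes.

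**Figure D1:**
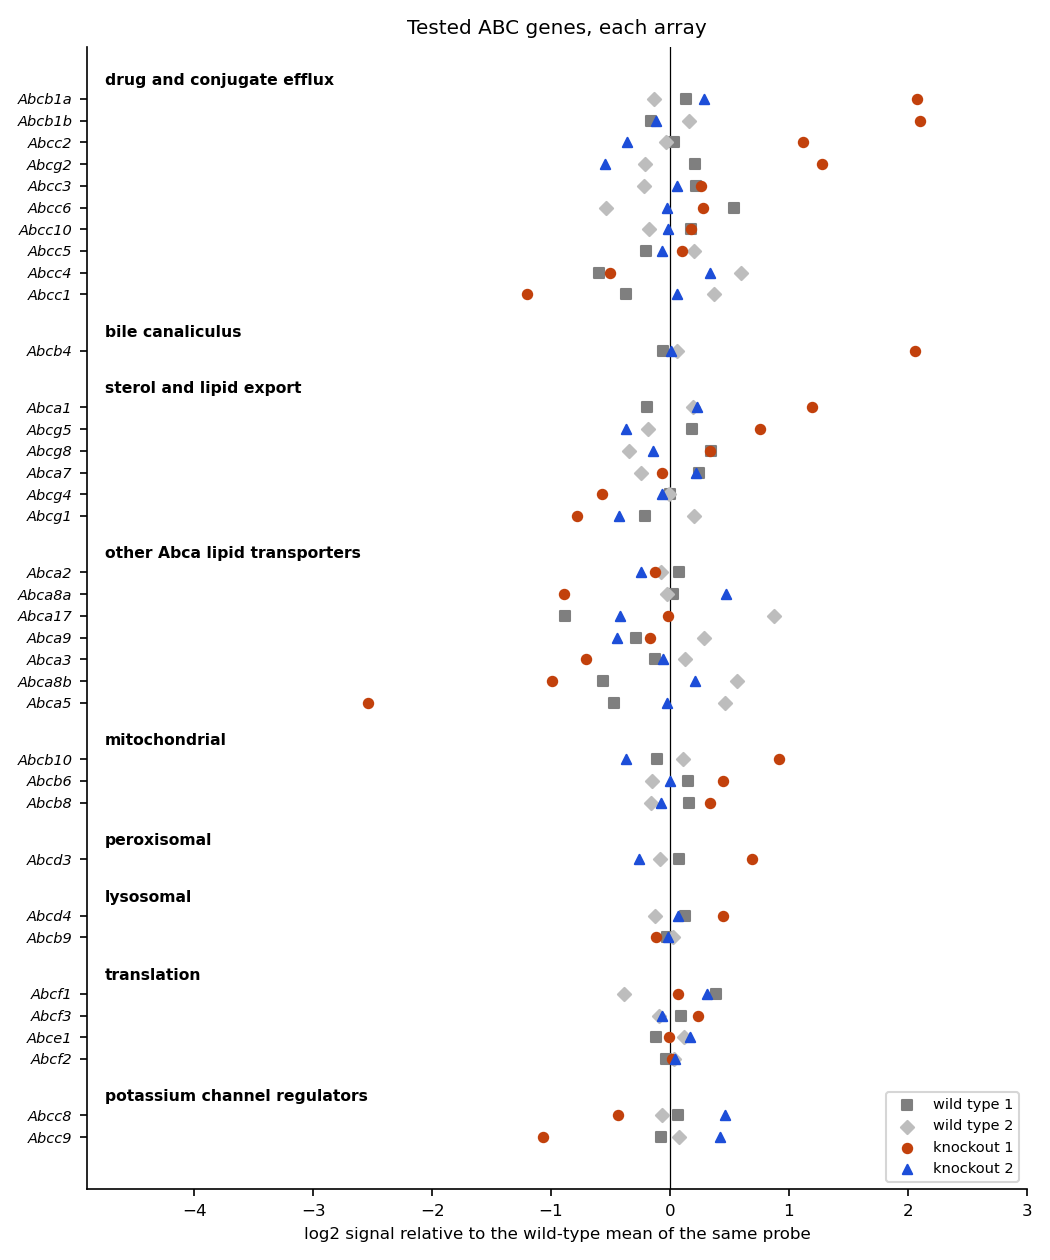
Each row is an ABC gene, grouped by role, and each symbol gives the log2 signal of an array minus the wild-type mean of the same probe. Knockout 1 (circles) reaches 2.11 and -2.54, while knockout 2 (triangles) stays between -0.54 and 0.48.

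**Figure D2:**
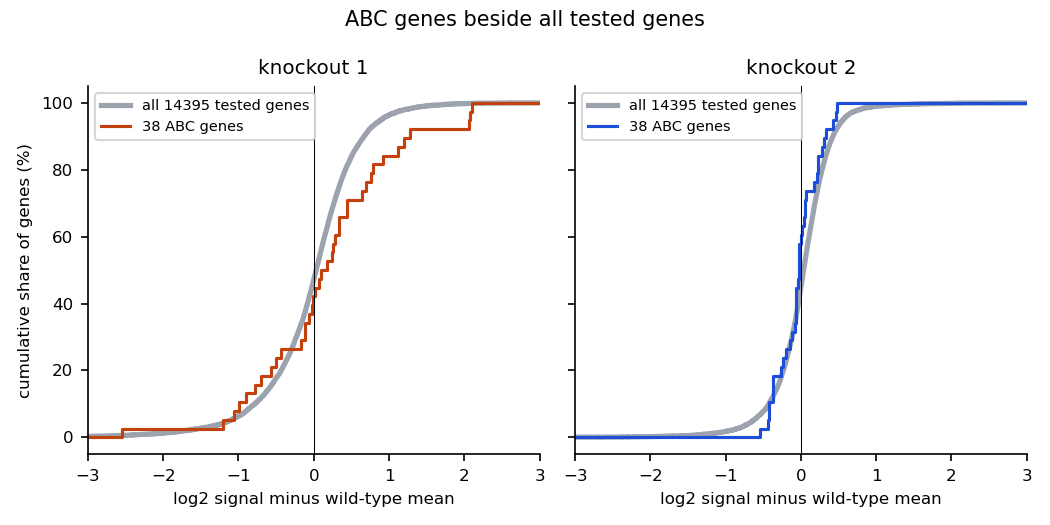
The cumulative share of genes (%) is plotted against the log2 difference of knockout 1 (left) or knockout 2 (right) from the wild-type mean, for the 38 ABC genes and for all 14395 tested genes. On knockout 1 the ABC curve lies to the right of the grey curve over the upper part, where 15.8% of members and 3.72% of all genes exceed a difference of 1, and on knockout 2 it ends before 0.5.

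The largest positive differences belonged to 3 neighbouring genes of chromosome 5. Abcb1a and Abcb1b encode the 2 mouse P-glycoproteins, which expel many lipophilic drugs, and Abcb4 encodes MDR3 (Mdr2 in mice), a phosphatidylcholine translocase known from the bile canaliculus. No other protein-coding gene lies between them in the RefSeq annotation. They lie far from the deletion on that chromosome, with 1148 protein-coding genes between Abcb4 and the Cyp3a cluster. Since the 3 largest positive differences fall on these neighbours, the 250 bases before each annotated start are shown, from RefSeq (GRCm38.p6), with capitals marking matches to 6 short motifs given below. Abcb1a lies at chr5:8566841-8567090, Abcb1b at chr5:8797897-8798146 and Abcb4 at chr5:8893471-8893720, each on the plus strand.
Abcb1a: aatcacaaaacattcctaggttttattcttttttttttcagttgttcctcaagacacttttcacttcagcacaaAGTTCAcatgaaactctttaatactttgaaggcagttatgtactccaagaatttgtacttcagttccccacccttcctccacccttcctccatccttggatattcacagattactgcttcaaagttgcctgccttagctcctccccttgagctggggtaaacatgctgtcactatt
Abcb1b: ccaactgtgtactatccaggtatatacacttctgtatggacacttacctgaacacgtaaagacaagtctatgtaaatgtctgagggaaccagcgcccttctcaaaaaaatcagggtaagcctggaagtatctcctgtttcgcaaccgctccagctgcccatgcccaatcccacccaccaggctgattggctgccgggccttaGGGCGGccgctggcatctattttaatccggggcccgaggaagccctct
Abcb4: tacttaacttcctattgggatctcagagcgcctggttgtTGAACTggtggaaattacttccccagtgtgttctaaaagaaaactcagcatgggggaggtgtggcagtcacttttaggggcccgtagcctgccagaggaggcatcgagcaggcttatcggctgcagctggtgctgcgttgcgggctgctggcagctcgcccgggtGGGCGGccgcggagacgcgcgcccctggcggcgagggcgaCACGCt
The motifs, searched on both strands with overlaps allowed, were the GC box GGGCGG, the TATA box TATAAA, the core of the NRF2 element TGACNNNGC, the AhR element core GCGTG, and the nuclear receptor sites AGGTCA and AGTTCA, the last of the kind PXR binds. The Abcb1a stretch holds an AGTTCA and neither a CpG nor a GC box. The Abcb1b stretch holds a GC box, and that of Abcb4 a GC box, an AhR core and an AGTTCA on the other strand. GC content was 40.4%, 52.8% and 61.6%, so the stretches differ in base composition. A further match, to the NRF2 core, lies 27 bases after the Abcb1a start. In windows of 300 bases around the start, AGTTCA was found in 26.7% of 45 ABC windows and 14% of all 32851, GGGCGG in 46.7% and 35.7%, GCGTG in 35.6% and 32.4%, TGACNNNGC in 15.6% and 12.4%, TATAAA in 15.6% and 13.6%, and AGGTCA in 15.6% and 16.3%. The windows of Abcg5 and of an Abcg8 start overlap by 209 bases, and AGTTCA and TATAAA were counted in both. Of the 38 members with a window, 28 were tested. The matches are of letters only and show no binding.

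Abcb1a read 1.07 in wild type 1, 0.80 in wild type 2, 3.01 in knockout 1 and 1.22 in knockout 2. Both knockout arrays were above both wild-type arrays, knockout 2 by little. Mean signal was 2.27-fold higher (difference 1.18, SE 0.58, 95% interval -0.22 to 2.58, limma's adjusted p = 1.00). Abcb1b had levels of -1.67 and -1.35 in wild type, 0.59 in knockout 1 and -1.63 in knockout 2. Knockout 2 lay between the wild-type arrays and knockout 1 alone was high, so the mean difference of 0.99 (SE 0.70, 95% interval -0.71 to 2.70) rests on that array. Abcb4 showed the same order, with 0.30 and 0.42 in wild type, 2.42 in knockout 1 and 0.37 in knockout 2 (difference 1.04, SE 0.64, 95% interval -0.52 to 2.59). Relative to the wild-type mean, the 3 genes stood at 2.08, 2.11 and 2.06 in knockout 1 and at 0.28, -0.12 and 0.01 in knockout 2. The 9 enterocyte markers ran from 0.25 for Fabp2 to 1.59 for Apoa4 in knockout 1, and their part in the values of these 3 genes was not tested. Within the shared slide the 3 differences were 2.21, 1.95 and 2.00. Without knockout 2, limma called all 3 higher (adjusted p = 0.00271, 0.00385 and 0.00253), when 135 genes or 0.938% of all were called higher. That fit takes its spread from wild type only and assumes that the lone knockout array varies likewise. Without knockout 1 limma called 0 members, when 0.0139% of all genes were called higher and 0.0695% lower (0.0834% in all), and with the replicate number as a block it also called 0, when 0.0417% of all genes were called higher and 0.181% lower (0.222% in all). The genes are close in sequence, and whether the probe of 1 also binds transcripts of another was not tested.

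Abcg2 encodes BCRP, an apical pump for drugs and sulphate conjugates, and Abcc2 encodes MRP2, an apical pump for glucuronide and glutathione conjugates. Abcg2 had levels of 4.0 and 3.58 in wild type, 5.07 in knockout 1 and 3.25 in knockout 2. Abcc2 had 2.79 and 2.72 in wild type, 3.88 in knockout 1 and 2.39 in knockout 2. For both genes knockout 1 was above and knockout 2 below both wild-type arrays, so the genotypes overlapped and the sign turned without knockout 1 (-0.54 for Abcg2 and -0.36 for Abcc2). Their differences were 0.37 (SE 0.60, 95% interval -1.09 to 1.82) and 0.38 (SE 0.50, 95% interval -0.83 to 1.58). These intervals leave room for more than a 2-fold difference either way for Abcg2 and for a higher level for Abcc2. Abcc3 encodes MRP3, a basolateral pump for glucuronides, and hardly moved on any array, with 4.80 and 4.36 in wild type and 4.84 and 4.64 in knockout (difference 0.16, SE 0.31, 95% interval -0.60 to 0.92). It turned to -0.06 without wild type 2.

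Abcc1, which encodes MRP1, a pump for glutathione conjugates found in most tissues, went the other way in knockout 1. Its levels were -1.80 and -1.05 in wild type, -2.63 in knockout 1 and -1.37 in knockout 2 (difference -0.57, SE 0.52), and without knockout 1 the difference was 0.06. Abcc4, encoding MRP4, a pump for cyclic nucleotides and conjugates, had -3.20 and -2.01 in wild type and -3.11 and -2.27 in knockout. The wild-type arrays spanned the whole range for Abcc4, and its difference of -0.08 (SE 0.54) says little. The remaining tested genes of this group, Abcc5, Abcc6 and Abcc10, had differences of 0.02, 0.13 and 0.08. The 4 Abcc5 probes that passed had differences from -0.33 to 0.23. No array showed Abcb5 or Abcc12 well above background. Among the 10 tested genes of drug and conjugate efflux, 8 had positive differences, with a median of 0.27 in knockout 1 and -0.02 in knockout 2.

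**Figure D3:**
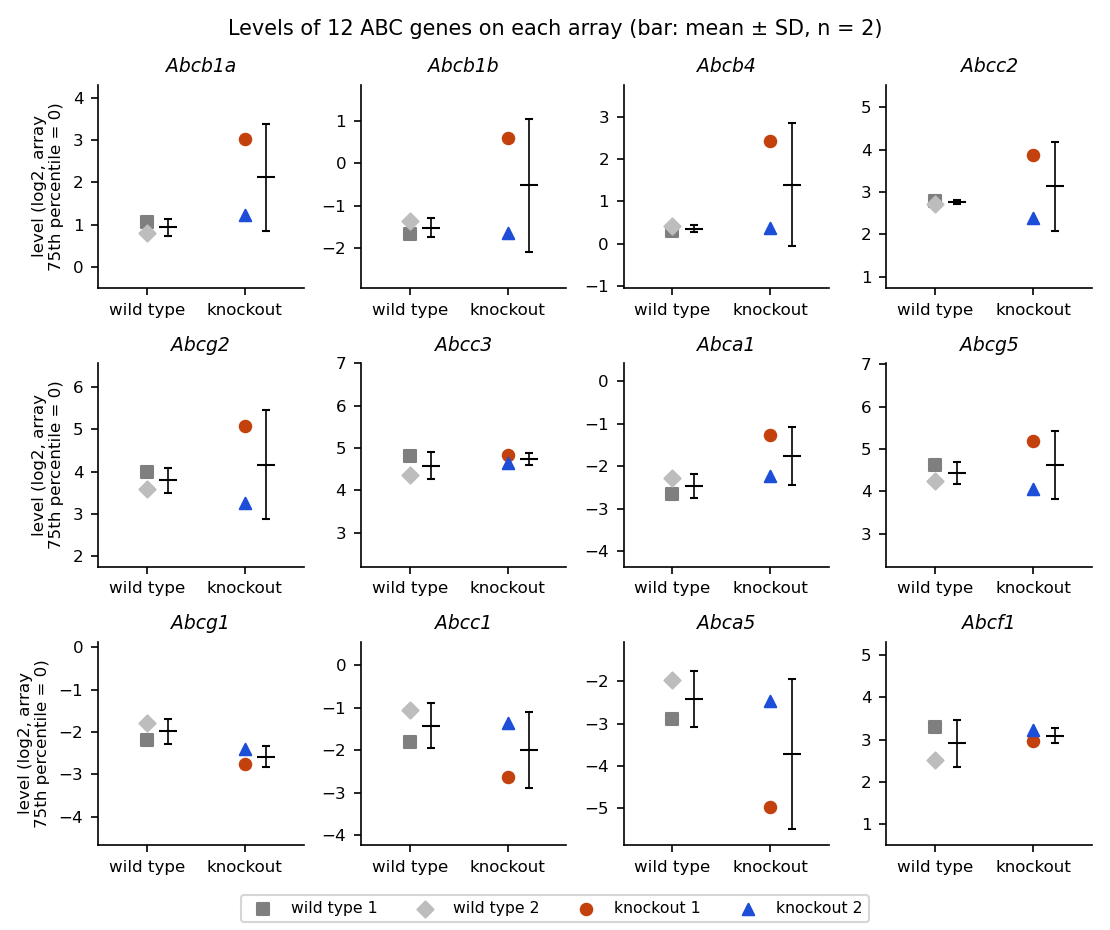
Levels of 12 ABC genes on each array are shown as log2 signal with the array's 75th percentile at 0, wild type on the left and knockout on the right of each panel, with the mean ± SD of 2 arrays beside the points. Every panel spans the same number of log2 units. Knockout 1 lies far above the rest for Abcb1a, Abcb1b and Abcb4 and far below for Abca5, while Abcc3 and Abcf1 differ little between genotypes.

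The bile salt export pump gene Abcb11, a liver gene, was not well above background on any array. It was the other member assigned to the bile canaliculus beside Abcb4.

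The sterol and lipid exporters did not move as a group. Abca1 loads cholesterol and phospholipid onto apolipoprotein A-I. Its levels were -2.67 and -2.28 in wild type, -1.28 in knockout 1 and -2.24 in knockout 2 (difference 0.71, SE 0.43, 95% interval -0.35 to 1.77). Both knockout arrays were above wild type, but knockout 2 only just. Abcg1, which moves cholesterol onto high-density lipoprotein in macrophages and other cells, had -2.19 and -1.78 in wild type and -2.76 and -2.41 in knockout. Here both knockout arrays were below both wild-type arrays, by -0.78 and -0.43 relative to the wild-type mean (difference -0.60, SE 0.36, 95% interval -1.48 to 0.27). Abcg1 kept a negative difference without each array in turn, from -0.81 to -0.40, and none of these was called, while normexp background correction brought it to -0.18. The 6 macrophage markers, all well above background on every array, summed to 2.76 and 2.67 in wild type but 2.84 and 2.44 in knockout, a sum carried by Csf1r. Of the 6, 5 had negative differences, and the medians were -0.06 in knockout 1 and -0.32 in knockout 2. Adgre1 and Lyz2 were lower on both knockout arrays without overlap, against 6.09% of all genes. The margins were small: wild type 1 and knockout 1 read -1.5757 and -1.623 for Adgre1, and -2.3035 and -2.3037 for Lyz2. The part of the macrophage markers in the Abcg1 value was not tested. Abca1 and Abcg1 are both known targets of the oxysterol receptors LXRα and LXRβ, whose genes Nr1h3 and Nr1h2 had differences of 0.15 (SE 0.31) and 0.11 (SE 0.29). Abcg4, a brain sterol transporter, had -2.64 and -2.64 in wild type and -3.21 and -2.70 in knockout. Both of its probes had a negative difference, -0.32 and -0.45. Abca7, a phospholipid exporter, had a difference of 0.08 (SE 0.31).

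Abcg5 and Abcg8 encode the paired subunits of sterolin, the apical pump that returns plant sterols and cholesterol to the gut lumen. They lie head to head on chromosome 17, and the 109 bases between the start of Abcg5 and the nearer of 2 annotated Abcg8 starts (GRCm38.p6, chr17:84683012-84683120, given on the strand of Abcg8) are shown because they separate these 2 starts, with the match to TATAAA in capitals.
Abcg5-Abcg8: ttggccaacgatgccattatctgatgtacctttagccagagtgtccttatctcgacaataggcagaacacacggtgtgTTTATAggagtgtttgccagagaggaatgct
The match, on the strand of Abcg5, was the only one to any of the 6 motifs there. Abcg5 had levels of 4.62 and 4.25 in wild type, 5.19 in knockout 1 and 4.06 in knockout 2. Abcg8 had -0.58 and -1.27 in wild type, -0.59 in knockout 1 and -1.07 in knockout 2. For both genes knockout 1 was above knockout 2, but for Abcg8 both knockout arrays lay within the wild-type range. The differences were 0.19 (SE 0.44, 95% interval -0.88 to 1.26) and 0.10 (SE 0.37, 95% interval -0.80 to 1.00), and both signs turned without knockout 1 (-0.37 and -0.14).

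The other Abca genes encode lipid transporters of large size, several of them lysosomal or secretory. All 7 tested had negative differences, with a median of -0.30, where 56.2% of all genes had positive ones. Abca1 (0.71) and Abca7 (0.08), listed with the sterol exporters, had positive differences. The lists were chosen with earlier results of these data known, so the shared sign depends on the grouping. The sign of these 7 did not hold in every setting. After normexp background correction Abca8a (0.0283), Abca8b (0.0713) and Abca9 (0.111) were positive, without knockout 1 Abca8a (0.4753) and Abca8b (0.212), and without wild type 2 Abca17 (0.6592) and Abca8b (0.1752). The medians were -0.70 in knockout 1 and -0.06 in knockout 2, and -0.29 and 0.29 in wild type 1 and 2. Abca5, a lysosome-associated transporter, had -2.90 and -1.96 in wild type, -4.97 in knockout 1, where it was not well above background, and -2.46 in knockout 2. Knockout 1 alone was low, so the difference of -1.29 (SE 0.85, 95% interval -3.35 to 0.77) shrank to -0.03 without that array. Without knockout 2 it was called lower (adjusted p = 0.0146), beside 298 genes or 2.07% of all, and after normexp background correction, with all arrays, the difference was -0.31. A second Abca5 probe, well above background on 1 array, had -0.70. Abca5, Abca8a, Abca8b and Abca9 are neighbours on chromosome 11, and in knockout 1 they stood at -2.54, -0.90, -0.99 and -0.17 relative to the wild-type mean. In knockout 2 they stood at -0.03, 0.48, 0.21 and -0.44, so the neighbours did not move alike there. Smooth muscle markers ran from -1.11 to -0.77 in knockout 1, and from 0.52 to 0.77 in knockout 2. Fibroblast markers had medians of -0.58 in knockout 1 and 0.38 in knockout 2. The part of either marker list in the values of these neighbours was not tested. Abca8b had -4.19 and -3.06 in wild type and -4.61 and -3.41 in knockout, with a difference (-0.39, SE 0.62) smaller than the distance between the wild-type arrays. Abca3, which fills surfactant bodies in the lung, had 3.03 and 3.29 in wild type and 2.46 and 3.10 in knockout (difference -0.38, SE 0.33). Abca2, a lysosomal transporter studied in brain, was lower on both knockout arrays, with -1.48 and -1.64 in wild type and -1.68 and -1.80 in knockout, by a margin smaller than the distance between the wild-type arrays. A second Abca2 probe, well above background on all 4 arrays, read -3.02 and -3.34 in wild type and -3.57 and -3.15 in knockout. On that probe the genotypes overlapped. Abca17 had a wild-type pair of -3.48 and -1.72, with both knockout arrays between them. The other 7, Abca4, Abca6, Abca12, Abca13, Abca14, Abca15 and Abca16, did not rise well above background on any array, and the same held for Abcg3.

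All 4 mitochondrial genes were above the wild-type mean in knockout 1, from 0.34 for Abcb8 to 0.92 for Abcb10, and ran from -0.37 to 0.00 in knockout 2. Abcb10 serves haem formation, and its difference was 0.27 (SE 0.45). Abcb8 had 2.08 and 1.75 in wild type and 2.25 and 1.84 in knockout (difference 0.13, SE 0.30). Abcd3, a peroxisomal transporter that imports fatty acyl-CoA for oxidation, stood at 0.69 in knockout 1 and at -0.26 in knockout 2. Abcd3 read 5.04 and 4.88 in wild type and 5.66 and 4.70 in knockout (difference 0.22, SE 0.40). Abcd2 was not well above background on any array. Of the lysosomal pair, Abcb9, a peptide transporter, had 2.72 and 2.77 in wild type and 2.63 and 2.72 in knockout. Its difference of -0.07 (SE 0.26, 95% interval -0.70 to 0.56) was among the smallest, and Abcd4, needed for vitamin B12 release, had 0.26 (SE 0.29).

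The ABC proteins of translation had small differences. Abce1 splits ribosomes after termination, and Abcf1, Abcf2 and Abcf3 act on initiation and stalled ribosomes. None of them spans a membrane. Their differences ran from 0.03 to 0.19, and relative to the wild-type mean they lay between -0.01 and 0.24 in knockout 1 and between -0.07 and 0.31 in knockout 2. Abcf1 had 3.30 and 2.52 in wild type and 2.98 and 3.22 in knockout, with both knockout arrays inside the wild-type range. The potassium channel regulators had medians of -0.75 in knockout 1 and 0.44 in knockout 2. Abcc9, the SUR2 subunit found in smooth and cardiac muscle, had 0.86 and 1.01 in wild type, -0.13 in knockout 1 and 1.35 in knockout 2. Abcc8, the SUR1 subunit of endocrine and nerve cells, had -1.22 and -1.35 in wild type, -1.72 in knockout 1 and -0.82 in knockout 2. Both were lowest in knockout 1 and highest in knockout 2, as were smooth muscle markers. Enteroendocrine markers had medians of 0.54 in knockout 1 and -0.21 in knockout 2, and those of enteric neurons and glia -0.76 and -0.23. The part of these markers was not tested. Kcnj8, the channel subunit that pairs with SUR2, stood at -0.87 and 0.45 in the same arrays.

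Genes that act with the ABC transporters were read from lists, and 0 of them passed the threshold in either direction. Of 11 sensors of drugs and stress, 8 had positive differences, with medians of 0.68 in knockout 1 and 0.04 in knockout 2. Nr1i2, which encodes PXR, the receptor that induces Abcb1a and Cyp3a genes, had 0.89 and 0.57 in wild type, 1.93 in knockout 1 and 0.75 in knockout 2. Ahr, encoding the aryl hydrocarbon receptor, had -0.23 and -0.02 in wild type and 1.16 and -0.01 in knockout (difference 0.70, SE 0.43), and Nfe2l2, encoding NRF2, had 2.79 and 2.76 in wild type and 3.68 and 2.82 in knockout (0.48, SE 0.36). All 13 tested conjugating enzymes, which make substrates for the Abcc pumps and Abcg2, had positive differences, with medians of 1.06 and -0.25. In 3 of the 13, Gsta4, Gstm1 and Gstm3, both knockout arrays were above both wild-type arrays, as in 8.66% of all genes. The list was chosen with earlier results of these data known, so the 2 shares cannot be weighed against each other. Gstm1 and Gstm3 also moved alike, at 1.99 and 1.83 in knockout 1 and 0.42 and 0.39 in knockout 2. Gsta4 and Gstm1 had the smallest p, with differences of 0.81 (SE 0.29) and 1.21 (SE 0.54, limma's adjusted p = 1.00 for both). Partners in sterol handling had medians of 0.79 and -0.18. Mylip, an LXR target that degrades the LDL receptor, was lower on both knockout arrays (-1.45 and -1.01 in wild type, -2.72 and -1.55 in knockout), and Apob, the core protein of chylomicrons, had a difference of 0.53 (SE 0.40). Bile salt partners had medians of 0.82 and -0.27. Slc10a2, the ileal bile salt importer, had a difference of 1.14 (SE 0.58) and was well above background on 2 arrays, and Nr1h4, encoding the bile salt receptor FXR, had 0.33 (SE 0.48). Peroxisomal oxidation partners had medians of 0.48 and -0.21, with Hsd17b4 at 0.37 (SE 0.42) and Ehhadh at 0.17 (SE 0.37). Partners in ribosome recycling and iron-sulphur assembly had medians of 0.17 and 0.09, with Eif2s1 at 0.34 (SE 0.26) and Eif2ak4 at -0.47 (SE 0.41). Of the ABC proteins with other symbols, Tap1 and Tap2, which load peptides onto MHC class I, had 0.37 (SE 0.53) and 0.08 (SE 0.35), and the chloride channel gene Cftr had -0.25 (SE 0.32).

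**Figure D4:**
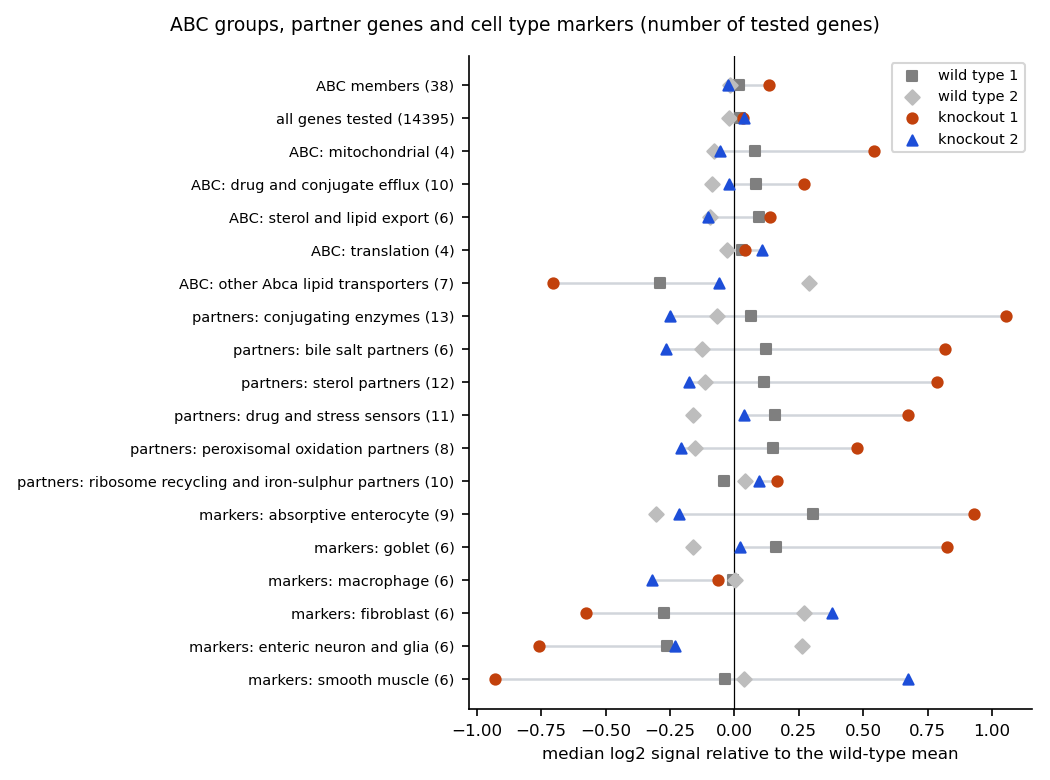
Each row gives the median log2 signal of a gene list relative to the wild-type mean on each array, with the number of tested genes in brackets, for ABC groups, partner lists and cell type markers. A grey line joins the knockout arrays. Enterocyte markers lie right of 0 for knockout 1 and left for knockout 2 (0.93 and -0.22), as conjugating enzymes do (1.06 and -0.25), while smooth muscle markers lie the other way (-0.93 and 0.68).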

How the data were processed

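Members, lists and tests were chosen with earlier results of these data known. The authors used Agilent Feature Extraction 11.5.1.1, per the submitters' processing notes. The deposited intensity is, per the file headers, background-subtracted and detrended and not scaled between arrays, and the arrays carry annotation of build mm9. The authors' table of log2 values, whose scale no label states, matched the scaled log2 signal used here after subtracting each probe's median over arrays (all values within 0.01, column medians 0.05, -0.10, -0.11 and 0.12), so it keeps differences and no levels. Per the file headers, spots also carry 0 or 1 flags.

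Control and outlier spots were left out, spots of a probe averaged as log2, and arrays scaled by their 75th percentile. Probes were named by unversioned accession through RefSeq symbols (28025 of 39429), were kept if 2 or more arrays showed them well above background, and the brightest per gene was used. Genotypes were compared by lmFit and eBayes with trend (limma 3.58.1, R 4.3.3) with Benjamini-Hochberg adjustment. The number of arrays limits the precision. Promoter sequences are RefSeq's, for 38 of the 50 members.

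Members named with values were a fixed set of drug, sterol and bile pumps, the 6 largest differences per direction, all without overlap, the brightest per role, and the 2 smallest p per partner list. Others (Abcb10, Abcc5, Abcc6, Abcc8, Abcc10, Abca7, Abca8a, Abca9, Abca17, Abcd4, Tap2, Nr1h2, Nr1h3, Nfe2l2) are given beside their groups and were chosen after their values were seen. Some tested members enter the counts and medians but are not reported here by name. On simulated data with 14395 genes and 200 changed ones, the fit recovered 0% of 2-fold, 11.8% of 4-fold, 63% of 16-fold and 87.4% of 256-fold changes. Of the calls, 2.11% were false. Each gene was drawn independently from a normal distribution with its own SD, so shifts shared by genes on an array were not simulated. Alternatives were other background corrections, scalings, filters, probe rules and variance models, the authors' table, a replicate block, the shared slide and leaving out each array. The files hold no mean spot signal, so normexp used the median signal.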

Additional observations from a re-analysis of the deposited data

How the results depend on the processing

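Over all genes limma called 0 higher and 6 lower. With every probe well above background on all 4 arrays it called 0 lower, since the Cyp3a cluster genes then leave the table. Leaving out an array gave 0 to 135 higher and 0 to 298 lower. Deviations from the genotype mean correlated at 0.0506 between arrays of the same replicate number. With 2 arrays per genotype these deviations mirror each other, so the value cannot settle whether the numbers pair the samples. With the replicate block the counts were 6 higher and 26 lower, and 0 ABC genes were called. ABC calls stayed at 0 in every setting run except without knockout 2, so leaving out an array gave 0 to 3 higher and 0 to 1 lower. The median ABC difference of 0.08 ran from -0.0255 to 0.22 without an array and was 0.34 within the shared slide. The ABC genes without overlap (2 higher, 3 lower) became 4 higher with median scaling, and 4 higher and 1 lower after normexp. Leaving out an array, an alternative chosen after seeing the data, gave 7 to 16 higher and 8 to 12 lower, since fewer arrays overlap less.

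Normexp on all spots could not be used for knockout 2, where 6 spots had a local background above their own signal, up to 37800, and the median corrected signal was 433 instead of 30.6. Those spots were left out, a choice made after seeing the data. Of the members given with values, normexp then turned Abca7 to -0.0053, Abca8a to 0.0283, Abca8b to 0.0713, Abca9 to 0.111 and Abcc4 to 0.0292. Leaving out an array turned the sign of 13 of the 22 members named by rule, whose differences ran from -0.99 to 0.21 (Abca8b), -0.12 to 2.11 (Abcb1b), -0.075 to 0.34 (Abcb8), -1.20 to 0.0567 (Abcc1), -0.36 to 1.12 (Abcc2), -0.0611 to 0.38 (Abcc3), -0.68 to 0.51 (Abcc4), -1.06 to 0.42 (Abcc9), -0.26 to 0.69 (Abcd3), -0.20 to 0.58 (Abcf1), -0.54 to 1.28 (Abcg2), -0.37 to 0.76 (Abcg5) and -0.25 to 0.45 (Abcg8). The causes were not tested. Quantile and median scaling, the authors' table, the other filters, the probe mean, the variance models and the block kept the sign of all of those 22 they tested. The probe mean turned Abcc5 to -0.0519, Abcc6 to -0.0379 and Abcc8 to -0.0216.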
